A study of Mus musculus with 9 samples.

Results

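The genes of the CIDE family and of the coat of the milk fat globule were followed in the mammary gland of WT and hNAG-1 dams on lactation day 2 (L2). They were chosen by name as Cidea, Cideb, Cidec, Adfp (the array's older symbol for Plin2), Xdh, Btn1a1 and Mfge8, and every probe that the array design assigns to one of these symbols was taken. This gave 9 probes for 7 genes, of 41174 probes with 27962 gene names on the array. The WT group held 4 wild type dams and the hNAG-1 group held 5 dams that carried a transgene for ubiquitous expression of human NAG-1 (also named GDF15), with the strain background of both groups labelled C57BL/7. RNA came from mammary gland number 4 and was labeled with Cy3 for 1 Agilent whole mouse genome array per dam. The labels give neither the transgenic line nor the litter of each dam, and the study's methods state that lines were combined in some of its experiments. The gland was taken whole, so that fewer cells of a type and less RNA per cell cannot be told apart in these values.

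Milk fat leaves the secretory epithelial cell as a globule. Triglyceride droplets form at the endoplasmic reticulum, gain a coat of perilipin, fuse and move to the apical surface, and are then wrapped in plasma membrane as they bud into the lumen. CIDE proteins sit at the contact sites of lipid droplets and promote the transfer of lipid from smaller to larger ones, and adipophilin (Adfp), xanthine oxidoreductase (Xdh) and butyrophilin (Btn1a1) link the droplet to the membrane that encloses it. Cidea is abundant in brown fat and in the lactating gland, Cidec in white fat and Cideb in liver and intestine. The comparison of WT with hNAG-1 at L2 addresses whether the RNA of these genes differed between glands of dams with and without the transgene, early in the lactation that the study examined.

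No exon table of the mouse build that the array files use (mm7) was used here, so the probes are placed by coordinates without an annotation of exon or UTR. Each probe had 60 bases. The Cidea probe lay on the plus strand and the other probes on the minus strand. The probe of Cideb was at chr14:50622503-50622562, that of Cidec at chr6:113585627-113585686, that of Adfp at chr4:86060498-86060557 and that of Mfge8 at chr7:74997005-74997064. The pair of Btn1a1 probes was at chr13:22823681-22823740 (A_51_P316310) and chr13:22829854-22829913 (A_52_P196097). Of the Xdh probes, A_51_P312121 was at chr17:72172548-72172607, and A_52_P249965 spanned chr17:72181137-72182011, a stretch of 875 bases for 60 bases of probe. The mapped span of A_52_P249965 therefore held a gap, as a probe made across a splice junction would. Its sequence is given because it carried the largest difference between genotypes in the set, and that of Cideb because it was the one gene of the set without a signal. Of the 3 reading frames of each, 1 held no stop codon.
Xdh A_52_P249965: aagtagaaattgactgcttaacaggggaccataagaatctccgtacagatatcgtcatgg
Cideb A_52_P512365: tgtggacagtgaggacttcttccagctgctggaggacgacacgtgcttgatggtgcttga

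Intensities below are those the scanner software gave after background subtraction, scaled so that every array had the same 75th percentile. Before scaling, this percentile ran from 509 to 1133, and the share of probes well above background ran from 59.0% to 75.6% over the arrays. WT 2 had the highest value of both. Slides and genotypes were largely confounded, since slide 1 was used for WT 1 alone, slide 2 for hNAG-1 1 to 4, and slide 3 for WT 2 to 4 and hNAG-1 5. Slide and genotype cannot be told apart outside slide 3, which held a single hNAG-1 array. WT 2 also stood apart in markers of lymph node lymphocytes, whose 9 genes summed to 50927 in WT 2 and to between 1964 and 9592 in the other arrays. All 11 secretory epithelium markers and 6 of 6 myoepithelial markers were well above background on every array, as the label mammary gland requires.

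Of the 9 probes, 8 were well above background on all 9 arrays, and the probe of Cideb was not on any. None of the 9 probes passed the test between genotypes at an adjusted p under 0.05, where limma called 0.00243% of all probes, and none at an unadjusted p under 0.05, where it called 5.62%. The genotypes overlapped in every probe of the set, while they did not overlap in 1.38% of all probes. Leaving out Cideb and the saturated Mfge8, 25 of the 35 values of hNAG-1 arrays in the other 7 probes lay inside the range of the WT arrays. These values share arrays and include probe pairs of Xdh and Btn1a1, and the share over all probes was not computed.

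**Figure D1:**
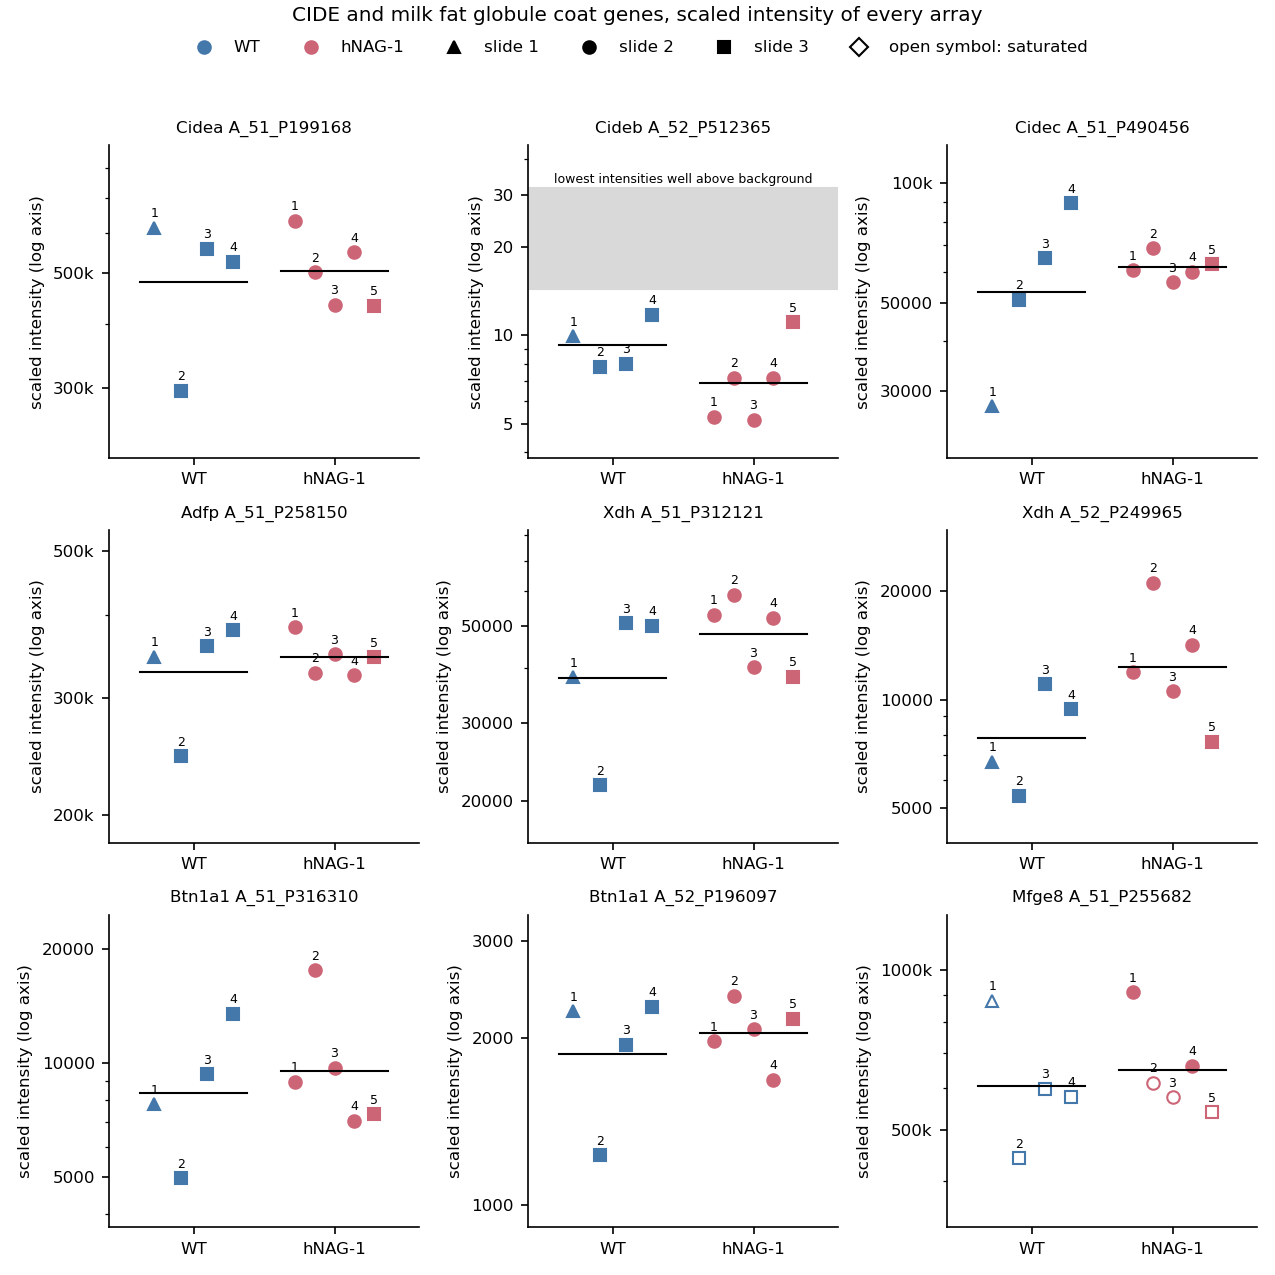
Scaled intensity (log axis) of the 9 probes in every array, with WT in blue, hNAG-1 in red, the array number beside each point, the slide as the symbol and the mean of the log2 values as a line. Open symbols for Mfge8 are saturated spots and the grey band for Cideb spans the lowest intensities well above background on the arrays (14.4 to 31.7). WT 2 was the lowest array in 6 of the 7 probes that were neither saturated nor below background, and the genotypes overlapped in all 9.

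Cidea, which is required in mice for normal milk lipid secretion, was well above background in every gland. Its probe, A_51_P199168, lay at chr18:67759992-67760051. Its scaled intensity was 613462, 296776, 557835 and 527215 in WT 1 to 4, and 632274, 503291, 435402, 549568 and 432766 in hNAG-1 1 to 5. WT 2 was the lowest array by a wide margin, and hNAG-1 1 was the highest. WT dams had a mean of 498822 ± 139348 (SD, n = 4) and hNAG-1 dams one of 510660 ± 83799 (SD, n = 5). The log2 difference, hNAG-1 minus WT, was 0.071 (SE 0.24, 95% confidence interval -0.46 to 0.60), with an adjusted p = 0.930 by limma and an exact two-sided permutation p = 0.817. The interval reached from a 0.727-fold to a 1.52-fold level in hNAG-1, so that changes of that size were not resolved with these arrays. Without WT 2 the difference was -0.16, and on slide 3 alone it was -0.036.

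The Cidea signal lay near the upper end of the scanner's range. It reached between 65.3% and 92.3% of the saturation value on each array, with no spot marked as saturated. Before scaling, its intensity varied 1.41-fold over the 9 arrays, from 422878 to 595860, and after scaling 2.13-fold. Without any scaling the log2 difference was -0.079. The SD of log2 Cidea over the arrays was 0.16 before and 0.34 after scaling, and the part of the saturation limit in this was not tested.

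**Figure D2:**
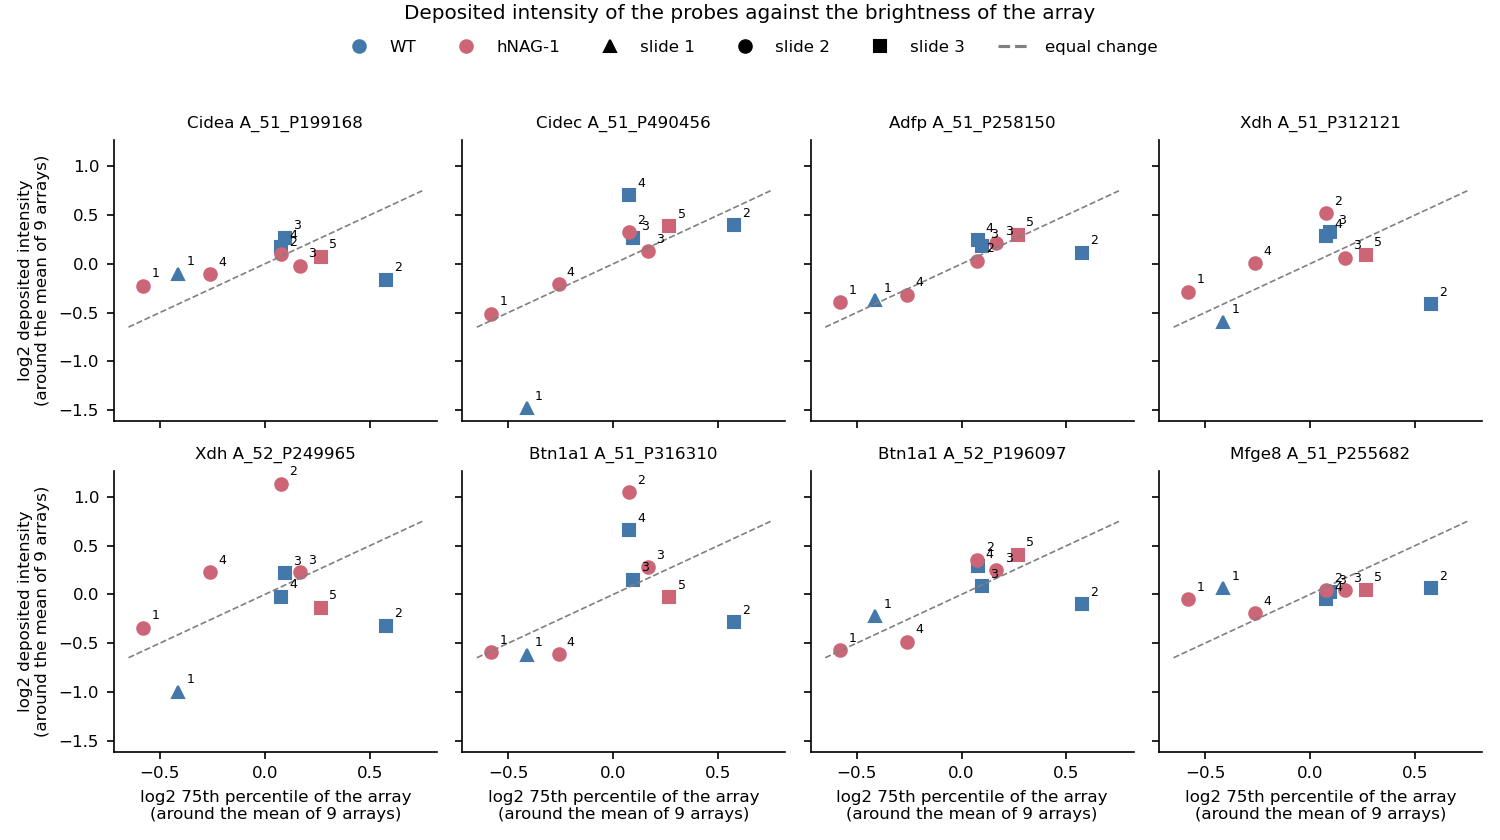
Deposited intensity of the 8 detected probes against the 75th percentile of the same array, both as log2 around their mean over the 9 arrays, with genotype as color, slide as symbol and array numbers beside the points. The dashed line marks equal change. The points of Cidea and Mfge8 rise less than the line, so that scaling lowered them on the bright array WT 2 and raised them on the dim arrays WT 1 and hNAG-1 1.

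Since the study's PCR expressed transcripts relative to Ppib (cyclophilin B), Cidea was also set against Ppib on the same array, which needs no scaling between arrays. By PCR and by protein the study reported lower Cidea in hNAG-1 glands of both lines at L2. On its arrays it reported no Cidea difference. The log2 difference between Cidea and the mean of the Ppib probes was 4.44, 3.78, 4.53 and 4.54 in WT 1 to 4, and 4.68, 4.46, 4.01, 4.47 and 3.97 in hNAG-1 1 to 5. WT 2, hNAG-1 3 and hNAG-1 5 were the low arrays, and these were also the 3 arrays with the highest 75th percentile before scaling (1133, 853 and 915). The part of array brightness in the low ratios was not tested. WT dams had a mean of 4.32 ± 0.36 (SD, n = 4) and hNAG-1 dams one of 4.32 ± 0.31 (SD, n = 5), a difference of -0.01 (SE 0.22, exact two-sided permutation p = 1.0). It was -0.19 without WT 2 and -0.32 on slide 3 alone. Ppib itself had log2 differences of 0.09 (SE 0.14) and 0.07 (SE 0.17) in its 2 probes, with adjusted p = 0.836 and 0.905 by limma. Over the 9 arrays its probes had a Pearson's r of 0.21 (exact permutation p = 0.594, adjusted over 3 probe pairs 0.594) and a Spearman's rho of 0.27 (exact permutation p = 0.493, adjusted 0.493), and r was 0.25 without the 2 arrays farthest from the median.

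Cidec, which drives the formation of large single droplets in white adipocytes, differed more between WT glands than between genotypes. Its scaled intensity was 27485, 50964, 64834 and 89158 in WT 1 to 4, and 60503, 68617, 56422, 59966 and 62621 in hNAG-1 1 to 5. All 5 hNAG-1 arrays lay inside the WT range. The means were 58110 ± 25808 (SD, n = 4) and 61626 ± 4499 (SD, n = 5), with a log2 difference of 0.21 (SE 0.30, 95% confidence interval -0.47 to 0.88, adjusted p = 0.820 by limma, exact two-sided permutation p = 0.635). Without WT 1 the difference was -0.11, and without WT 4 it was 0.45.

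White adipocyte markers followed the same order at its ends. Their 8 genes, all well above background on every array, summed to 399472 in WT 1, the lowest array, and to 716439 in WT 4, the highest. WT 2 and WT 3 had sums of 421387 and 597859, and the hNAG-1 arrays had sums between 534648 and 663324. Their part in the Cidec values was not tested. Of these 8 markers 6 had a higher and 2 a lower mean in hNAG-1, where 48.3% of all probes had a higher one. Their median log2 difference was 0.36 against -0.01 over all probes. This median was 0.045 without WT 1 and 0.14 with slide as a block.

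Cideb, the family member known from liver and intestine, was not well above background on any array. Its scaled intensity was 9.95, 7.83, 8.01 and 11.8 in WT 1 to 4, and 5.29, 7.19, 5.17, 7.19 and 11.1 in hNAG-1 1 to 5. The lowest intensity that was well above background on an array lay between 14.4 and 31.7, so that all 9 values were below it and no fold change is given.

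Adfp codes for the perilipin that covers cytoplasmic lipid droplets in the secretory epithelium and remains on the secreted globule. Its scaled intensity was 346156, 244995, 358893 and 379280 in WT 1 to 4, and 383497, 327060, 348977, 324207 and 345147 in hNAG-1 1 to 5. Apart from WT 2 the arrays spanned 324207 to 383497, without a separation by genotype. The means were 332331 ± 59801 (SD, n = 4) and 345777 ± 23712 (SD, n = 5), with a log2 difference of 0.074 (SE 0.16, 95% confidence interval -0.29 to 0.44, adjusted p = 0.884 by limma, exact two-sided permutation p = 0.754). The difference was -0.066 without WT 2. The SD of its log2 values over the arrays was 0.19, and 21.2% of the 23076 probes that were well above background on all 9 arrays varied less.

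Xdh codes for xanthine oxidoreductase, which serves purine breakdown and also acts as a structural partner of butyrophilin at the apical membrane. Both Xdh probes had a higher mean in hNAG-1. The scaled intensity of A_52_P249965 was 6729, 5420, 11013 and 9411 in WT 1 to 4, and 11903, 21060, 10555, 14188 and 7637 in hNAG-1 1 to 5. Only the value of hNAG-1 2, the highest, was marked as scaled up from the scan at the lower detector setting. The part of the scan in it was not tested. Of the hNAG-1 arrays, 3 lay above every WT array, all of them on slide 2, and the hNAG-1 array of slide 3 lay inside the WT range. The means were 8143 ± 2534 (SD, n = 4) and 13069 ± 5057 (SD, n = 5), a log2 difference of 0.65 (SE 0.32, 95% confidence interval -0.06 to 1.37). This largest difference of the set did not pass the test, with p = 0.0676 before and 0.654 after adjustment by limma and an exact two-sided permutation p = 0.103. On slide 3 alone the difference was -0.11, and without hNAG-1 2 it was 0.46. In limma the 95% confidence interval lay above 0 with median scaling (0.87, lower bound 0.022), with normexp background correction (0.66, lower bound 0.062), without WT 3 (0.82, lower bound 0.045) and without hNAG-1 5 (0.83, lower bound 0.16). The adjusted p stayed between 0.228 and 0.987 under every alternative run.

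The other Xdh probe, A_51_P312121, gave 38156, 21749, 50668 and 49922 in WT 1 to 4, and 52946, 58795, 40246, 52119 and 38305 in hNAG-1 1 to 5. Again 3 hNAG-1 arrays of slide 2 were above all WT arrays and WT 2 was the lowest. The log2 difference was 0.33 (SE 0.27, 95% confidence interval -0.28 to 0.94, adjusted p = 0.674 by limma, exact two-sided permutation p = 0.302), and it was 0.06 without WT 2 and 0.01 on slide 3 alone. Log2 values of the probe pair were correlated over the 9 arrays (Pearson's r = 0.85, exact permutation p = 0.00273, adjusted over 3 probe pairs 0.00818, and Spearman's rho = 0.97, exact permutation p = 0.000165, adjusted 0.000496). Without the 2 arrays farthest from the median r was 0.80. The order of the glands in Xdh was therefore alike in both probes.

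Btn1a1 codes for butyrophilin, the main integral protein of the globule membrane, and is expressed by the secretory epithelium in late pregnancy and lactation. The scaled intensity of A_51_P316310 was 7806, 4971, 9369 and 13513 in WT 1 to 4, and 8943, 17650, 9735, 7044 and 7324 in hNAG-1 1 to 5. The gland hNAG-1 2 was far above the other hNAG-1 arrays, which all lay inside the WT range. The log2 difference was 0.19 (SE 0.35, 95% confidence interval -0.59 to 0.97, adjusted p = 0.860 by limma, exact two-sided permutation p = 0.651), and it was -0.06 without WT 2 and -0.23 on slide 3 alone.

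The other Btn1a1 probe, A_52_P196097, gave 2240, 1231, 1948 and 2280 in WT 1 to 4, and 1974, 2386, 2079, 1683 and 2170 in hNAG-1 1 to 5. Here 4 of 5 hNAG-1 arrays lay inside the WT range, and hNAG-1 2 was again the highest array. The log2 difference was 0.13 (SE 0.21, 95% confidence interval -0.35 to 0.60, adjusted p = 0.841 by limma, exact two-sided permutation p = 0.619), and it was -0.073 without WT 2 and 0.30 on slide 3 alone. The probe pair was correlated over the 9 arrays (Pearson's r = 0.78, exact permutation p = 0.0128, adjusted 0.0193, and Spearman's rho = 0.73, exact permutation p = 0.0311, adjusted 0.0467). This rested in part on the extreme arrays, since r was 0.48 without the 2 arrays farthest from the median.

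Mfge8 codes for lactadherin, a secreted glycoprotein that binds phosphatidylserine on milk fat globules and on dying cells. Its spot was saturated on 7 arrays, which were all 4 WT arrays and hNAG-1 2, 3 and 5. Before scaling, its intensity lay between 551284 and 659069 on all 9 arrays, a 1.20-fold range. After scaling it was 876884, 442416, 598065 and 577763 in WT 1 to 4, and 909052, 614011, 577201, 660490 and 540184 in hNAG-1 1 to 5. Since the signal was at the limit on every WT array, these values bound the Mfge8 level from below and no fold change is given. The order of the scaled values followed the brightness of the arrays, with the lowest value on the brightest array, WT 2, and the highest values on the dim arrays hNAG-1 1 and WT 1.

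Side by side, the 7 probes with a measurable difference all had a higher mean in hNAG-1, as did 48.3% of all probes. Their median log2 difference was 0.19, and that of the 23076 probes detected on all arrays was 0.01. This shared direction depended on WT 2, without which 3 of the 7 differences were above 0, against 45.0% of all probes, and their median was -0.06. With slide as a block 3 of 7 were above 0 as well, against 68.5% of all probes, with a median of -0.036 beside 0.086 over the probes detected on all arrays. The 5 hNAG-1 glands varied less than the WT glands in 6 of these 7 probes, against 49.6% of all probes detected on every array, and in 1 of 7 once WT 2 was left out, against 32.6%. Slide 3 carried 3 WT arrays beside hNAG-1 5, which lay inside the range of those WT arrays in 7 of the 7 probes. That count rests on a single hNAG-1 array, and the share over all probes was not computed.

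**Figure D3:**
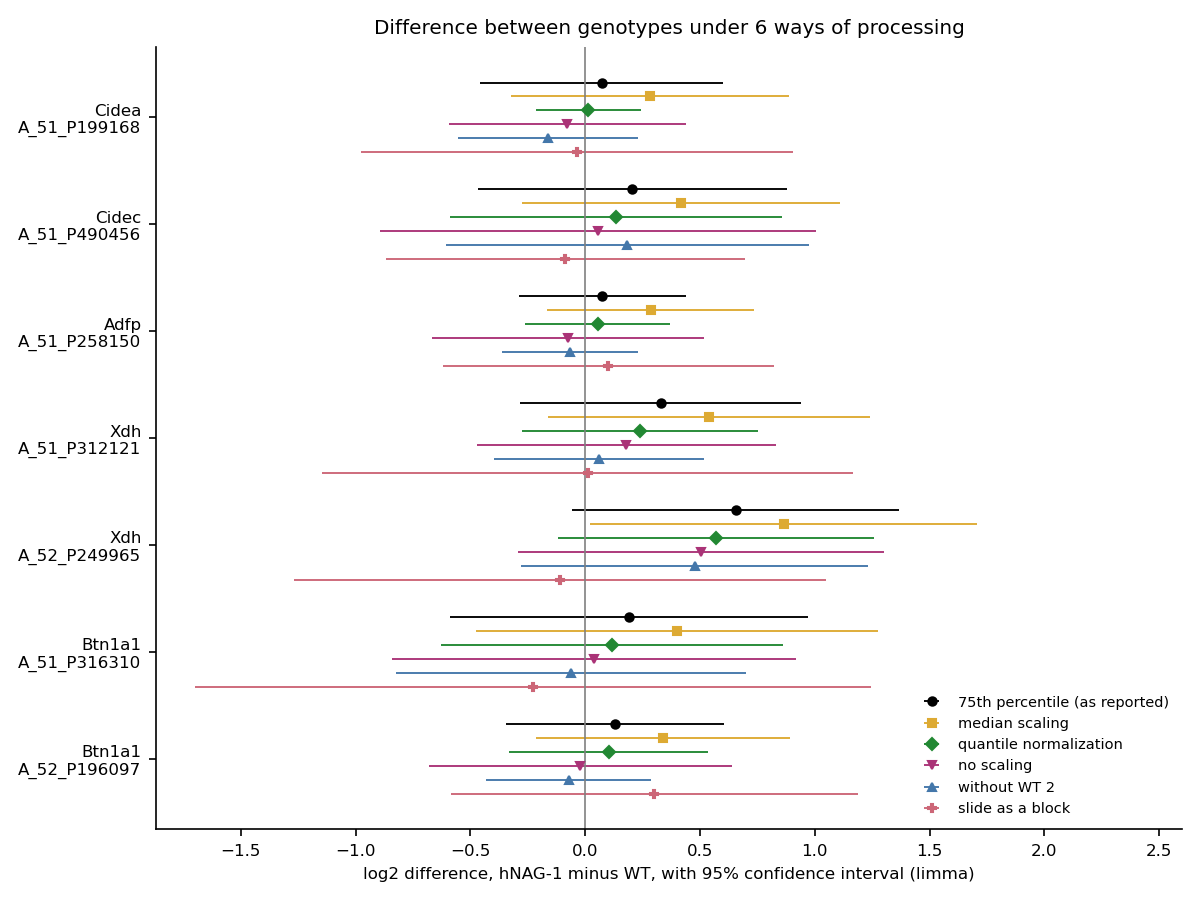
Log2 difference, hNAG-1 minus WT, with its 95% confidence interval from limma, for the 7 probes with a measurable difference under 6 ways of processing (color and symbol). All intervals of the values as reported (black) hold 0. The points for the Xdh probe A_52_P249965 run from -0.11 with slide as a block to 0.87 with median scaling.

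The scaling chosen moved all differences together. Scaling to the median in place of the 75th percentile moved the median log2 difference of the probes detected on all arrays from 0.01 to 0.22, and no scaling moved it to -0.14. Each of these 3 scalings moves all probes alike, so that the median of the 7 probes stayed 0.18 above that median. The gap was 0.08 under quantile normalization, 0.0082 with array weights, -0.039 without WT 2 and -0.12 with slide as a block. Of the probes that limma called without adjustment, 21.4% had the higher level in hNAG-1 with the 75th percentile, 70.7% with the median, 57.5% with quantile normalization, 54.2% with normexp background correction and 2.86% without scaling.

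Because glands can differ in their share of epithelium, each probe was also set against the mean of Krt8, Krt18 and Krt19, keratins of the luminal epithelium, on the same array. Relative to these keratins the log2 difference, hNAG-1 minus WT, was -0.06 (SE 0.22) for Cidea, 0.07 (SE 0.44) for Cidec and -0.06 (SE 0.15) for Adfp. It was 0.20 (SE 0.30) and 0.52 (SE 0.41) for the Xdh probes, and 0.06 (SE 0.36) and -0.0025 (SE 0.13) for the Btn1a1 probes. Over all arrays none passed the exact two-sided permutation test, whose p ran from 0.230 to 0.992, all 0.992 after adjustment over the 7 probes. On slide 3 alone all 7 were below 0, at -0.45 for Cidea, -0.50 for Cidec, -0.31 for Adfp, -0.40 and -0.53 for the Xdh probes, and -0.64 and -0.11 for the Btn1a1 probes, with a single hNAG-1 array and no test. With slide as a block, which rests on the same arrays, the keratins themselves were higher in hNAG-1. Their log2 differences were 0.47 for Krt8, 0.45 for Krt18 and 0.33 for Krt19, beside a median of 0.11 over the 11 secretory epithelium markers. The slide 3 values relative to the keratins therefore also hold the keratins' own difference. Against each Ppib probe alone the Cidea difference was -0.014 and 0.0036, so that its direction differed between the Ppib probes.

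**Figure D4:**
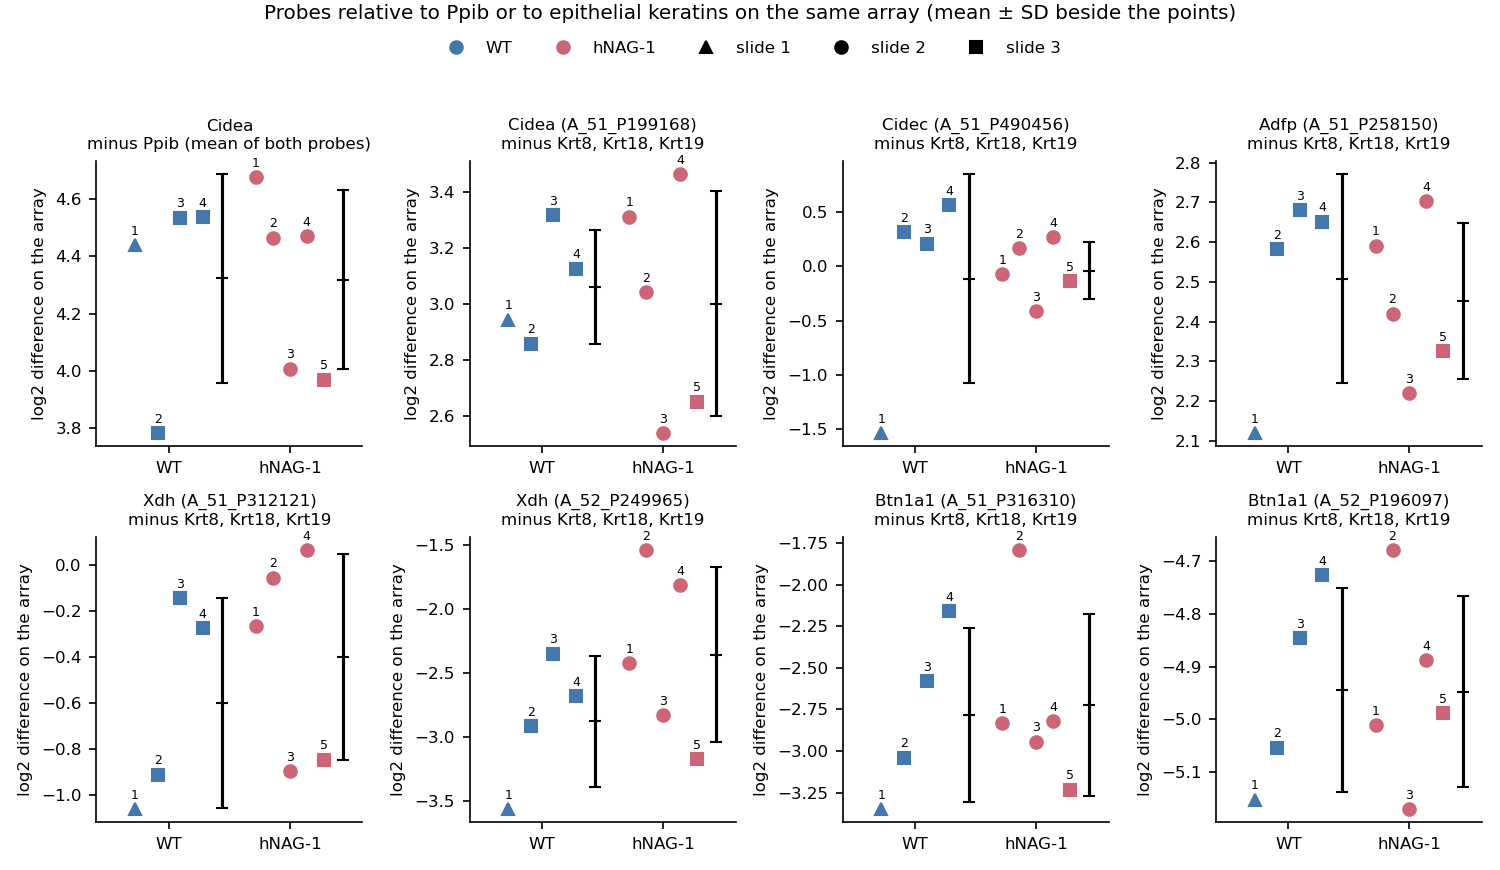
Log2 difference between a probe and Ppib (first panel) or the mean of 3 epithelial keratins (other panels) on the same array, with WT in blue and hNAG-1 in red, slide as symbol, and the mean ± SD beside the points. Cidea relative to Ppib had a mean of 4.32 in both genotypes, and the genotypes overlapped in all 8 panels.

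Other genes of the lipid droplet were counted for comparison. Of 17 genes for droplet coats and turnover, among them the other perilipins, seipin and the lipases, 1 was higher and 0 were lower in hNAG-1 at an unadjusted p under 0.05, where limma called 1.20% of all probes higher and 4.42% lower. None passed after adjustment, and their median log2 difference was 0.26, or 0.14 without WT 2. The gene was Aup1, which acts in lipid droplet clustering and in protein degradation at the endoplasmic reticulum. WT dams had a mean of 5008 ± 221 (SD, n = 4) and hNAG-1 dams one of 6374 ± 601 (SD, n = 5), without overlap, at a log2 difference of 0.34 (SE 0.13, adjusted p = 0.654 by limma, exact two-sided permutation p = 0.0159). With slide as a block the Aup1 difference was 0.34 with an unadjusted p = 0.212 in limma. The one gene of this list below 0.05 was then the perilipin gene Plin3, at a difference of 0.90 with an unadjusted p = 0.0165, where limma called 6.87% of all probes higher and 0.712% lower. Fitm1, a droplet-forming protein of muscle, was well above background on 4 arrays, so its difference was not ranked. Among the 16 genes detected on every array the largest difference was 1.03 (SE 0.53, adjusted p = 0.654 by limma) for the acyltransferase and lipase gene Pnpla3, which was 0.58 without WT 2 and 0.31 with slide as a block.

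Of 18 other proteins found on milk fat globules, 16 had a higher and 2 a lower mean in hNAG-1, where 48.3% of all probes had a higher one. Their median log2 difference was 0.12, or 0.069 without WT 2 and 0.022 with slide as a block. At an unadjusted p under 0.05, 1 was higher and 0 were lower, beside 1.20% and 4.42% of all probes, and none passed after adjustment. The gene was Muc1, the transmembrane mucin of the apical membrane and the globule. WT dams had a mean of 2369 ± 310 (SD, n = 4) and hNAG-1 dams one of 3740 ± 1218 (SD, n = 5), without overlap, at a log2 difference of 0.61 (SE 0.23, adjusted p = 0.654 by limma, exact two-sided permutation p = 0.0238). Without WT 2 the Muc1 difference was 0.52, with an unadjusted p = 0.0713, and on slide 3 it was 0.29. Over the 18 genes, 12 means were higher and 6 lower once WT 2 was left out, where 45.0% of all probes were higher. At an unadjusted p under 0.05, 0 were then higher and 1 lower, where limma called 0.644% and 3.66% of all probes. These counts use the brightest probe of each gene. With all arrays, another probe had a lower mean in hNAG-1 for Folr1 (-0.25), Stx3 (-0.59) and Cd59a (-0.11).

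The cell types of the gland were read from marker lists. Of 11 secretory epithelium markers, 0 passed at an unadjusted p under 0.05 in limma, where 5.62% of all probes did. The largest difference was 0.35 (SE 0.22) for Lalba, the regulatory subunit of lactose synthase. All 11 had a higher mean in hNAG-1, against 48.3% of all probes, with a median of 0.06. Once WT 2 was left out 1 of 11 did, against 45.0% of all probes, with a median of -0.07. The summed intensity of the list ran from 1255081 to 2270278 in WT and from 1640315 to 2330180 in hNAG-1. It was lowest in WT 2, as were Cidea and Adfp, and so was the mean of the genes' log2 values around their means (-0.50). The highest array was hNAG-1 1 by the sum, in which bright milk protein probes dominate and Wap was saturated on 2 arrays, and WT 1 by the mean of log2 values (0.31, against 0.15 in hNAG-1 1). The part of the epithelial list in the values of these genes was not tested beyond the keratin comparison above.

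All 9 lymph node lymphocyte markers had a lower mean in hNAG-1, while 48.3% of all probes had a higher one. Their median log2 difference was -1.49, or -0.48 without WT 2. At an unadjusted p under 0.05, where 4.42% of all probes were lower, 1 of 9 was lower, the T cell adhesion gene Cd2 (-1.50, SE 0.66, adjusted p = 0.654 by limma), which was -0.78 without WT 2 and -0.93 with slide as a block, with an unadjusted p above 0.05 in each. The complement receptor gene Cr2 was well above background on 4 arrays, so its difference was not ranked. Among the 6 genes detected on every array the largest difference was -1.52 (SE 1.30) for the B cell receptor gene Cd79b, which was -0.28 without WT 2. The sum of these markers ran from 2485 to 50927 in WT and from 1964 to 9592 in hNAG-1. WT 2 was thus the array with the highest lymphocyte signal and the lowest scaled signal of 6 of the 7 probes compared. Before scaling, WT 2 was the lowest array in none of these probes, and its 75th percentile was the highest (1133). The part of the lymphocyte RNA in the low scaled values was not tested.

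Among the 8 white adipocyte markers, 2 were lower and 0 higher in hNAG-1 at an unadjusted p under 0.05, where limma called 4.42% of all probes lower and 1.20% higher, and none passed after adjustment. The other 6 had a higher mean in hNAG-1 and did not pass, with log2 differences of 1.00 (SE 0.48) for Retn and 0.50 (SE 0.36) for Adipoq, both hormones of fat cells and named after their values were seen. Nnat, an imprinted gene of adipose and neuroendocrine cells, had means of 855 ± 285 (SD, n = 4) and 376 ± 114 (SD, n = 5), without overlap, at a log2 difference of -1.19 (SE 0.28, adjusted p = 0.654 by limma, exact two-sided permutation p = 0.00794, the smallest these arrays allow). With slide as a block the Nnat difference was -1.12 with an unadjusted p = 0.0677. Pck1, which supplies glycerol for triglycerides in fat, had a log2 difference of -1.01 (SE 0.39, adjusted p = 0.654 by limma), or -0.79 with an unadjusted p = 0.0879 without WT 2 and -0.33 with an unadjusted p = 0.550 with slide as a block. Of 7 brown adipocyte markers 0 passed at an unadjusted p under 0.05 in limma, and their median was -0.07, or -0.43 without WT 2 and 0.16 without hNAG-1 4. Ucp1, the uncoupling protein of brown fat, was well above background on 7 arrays, so its difference was not ranked, and among the 5 genes detected on every array the largest was -0.26 (SE 0.51) for the deiodinase gene Dio2.

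Brown fat is the other main source of Cidea, and the glands differed in its markers. The sum of the 7 genes was 6476, 4818, 17027 and 32129 in WT 1 to 4, and between 5102 and 10485 in hNAG-1. WT 4 and WT 3 were highest in this sum. Its part in the Cidea values was not tested. Of the 6 myoepithelial markers, 6 had a higher mean in hNAG-1, as did 48.3% of all probes, with a median of 0.35, and 1 was higher at an unadjusted p under 0.05, beside 1.20% of all probes, the smooth muscle myosin gene Myh11 (0.48, SE 0.16, adjusted p = 0.654 by limma). The median was 0.14 without WT 2, and with slide as a block Myh11 was 0.28 with an unadjusted p = 0.363. Their sum was lowest in WT 2 (77224) and highest in hNAG-1 3 (178181).

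**Figure D5:**
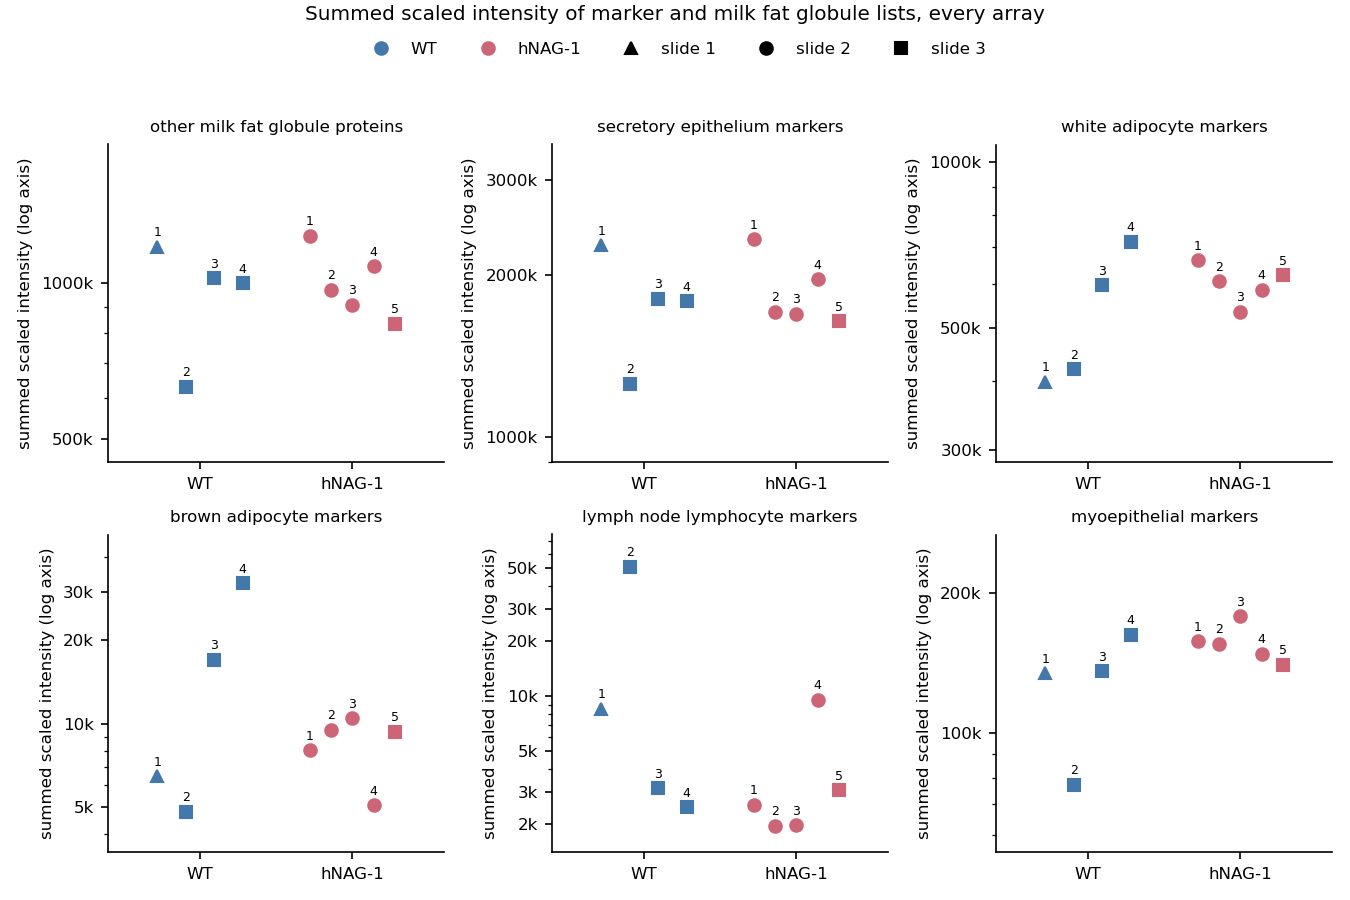
Summed scaled intensity (log axis) of the other milk fat globule proteins and of 5 lists of cell type markers in every array, with WT in blue, hNAG-1 in red, the array number beside each point and slide as symbol. WT 2 was lowest in 4 of the 6 lists and highest in lymph node lymphocyte markers (50927), and WT 1 and WT 4 were the ends of the white adipocyte list (399472 and 716439).

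For each gene of the set other than Cideb, without a signal, and Mfge8, saturated on 7 arrays, the 2 named genes with the most similar pattern over the 9 arrays were looked up among the 23076 detected probes, by Pearson's r of log2 values. As all points share arrays and their scaling, these are descriptions without a test. Cidea was most like Cib1 (0.98) and Psme4 (0.98), and Adfp like Timm13 (0.99) and Nisch (0.98). Cidec was most like Hoxc9 (0.97) and L3hypdh (0.96), Xdh like Bysl (0.98) and Abhd13 (0.98), and Btn1a1 like Steap3 (0.98) and Homer1 (0.98). For Xdh and Btn1a1 this was the brighter probe (A_51_P312121 and A_51_P316310), and no member of the set was among the 2 nearest genes of the probes searched.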

How the data were processed

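Intensities per feature of 9 arrays read in 1 color were deposited by the authors, background-subtracted by Feature Extraction version 9.5.3.1 per the file headers and not scaled between arrays. Here control features were removed, replicate features averaged, and arrays scaled to their 75th percentile before log2. Genotypes were compared over 41174 probes by limma (version 3.58.1, R 4.3.3), two-sided and without covariates, with Benjamini-Hochberg adjustment over all probes. Exact permutation tests used all 126 splits of the arrays between genotypes, and for correlations all pairings of their values. Scripts were tested on simulated data. Depth does not apply, and the number of arrays limits precision. Groups follow the labels. With 1 array per dam and no slide term, p-values measure the spread between arrays, in which dam, array and slide are mixed.

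Genes and lists were chosen with earlier results of these data known. The text names every probe of the 7 genes, Ppib, list genes at an unadjusted p under 0.05 or with the largest difference of their list (brightest probe; a gene not detected on every array was not ranked, chosen after values were seen), and the 2 genes most like each gene that was neither saturated nor undetected. Alternatives were normexp (offset 50), other scalings, the series table (equal to the scanner intensities), removal of outlier flags or dim probes, slide, replicate number, single arrays left out, the methods' t-test and array weights. Counts without WT 2 and the spread by genotype were added after values were seen.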

Additional observations from a re-analysis of the deposited data

Results flagged for a closer look

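In 5 results 1 array lay farther from the rest of its genotype than Dixon's 95% critical value allows, of 60 groups of values tested, and chance flags about 1 group in 20. In Btn1a1 (A_51_P316310), hNAG-1 2 had a scaled intensity of 17650, with 0.746 of the hNAG-1 range between it and the next array, and -1.79 relative to the keratins. In Cidea relative to Ppib, WT 2 was low at 3.78, and at 5.23 relative to the Ppib probe A_51_P327825 alone. In Cidec relative to the keratins, WT 1 was low at -1.54. The white adipocyte markers were lowest in WT 1, and the lymph node lymphocyte markers highest in WT 2.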

How the results depend on the processing

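Cideb and Mfge8 have no fold change and were not recomputed. Of the 154 differences of the other 7 probes under the alternatives, 132 kept their direction, 22 turned it, and none passed the threshold, with a lowest adjusted p of 0.228 by limma. With array weights the log2 difference was -0.066 for Cidea, -0.084 for Cidec, -0.052 for Adfp and -0.0057 for Btn1a1 (A_51_P316310). Scaling moves all probes alike, and without it the median of those detected on all arrays was -0.14. The log2 difference was then -0.079 for Cidea, -0.075 for Adfp and -0.021 for Btn1a1 (A_52_P196097). Slide 3 alone and slide as a block, which rest on the same 4 arrays, gave -0.036 for Cidea, -0.088 for Cidec, -0.11 for Xdh (A_52_P249965) and -0.23 for Btn1a1 (A_51_P316310). Cidea relative to Ppib moved to -0.32, and relative to the keratins they gave -0.45 for Cidea, -0.31 for Adfp, -0.50 for Cidec, -0.40 and -0.53 for the Xdh probes A_51_P312121 and A_52_P249965, and -0.64 for Btn1a1 (A_51_P316310). These hold the difference of the keratins too, which with slide as a block was 0.47 for Krt8, 0.45 for Krt18 and 0.33 for Krt19. Cidea relative to Ppib was 0.0038 with quantile normalization, and Btn1a1 (A_52_P196097) relative to the keratins 0.018 with normexp. The cause was not tested.

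With each array left out in turn, the difference ran from -0.16 to 0.19 for Cidea, -0.11 to 0.45 for Cidec, -0.066 to 0.14 for Adfp, 0.060 to 0.47 for Xdh (A_51_P312121), 0.46 to 0.83 for Xdh (A_52_P249965), -0.061 to 0.42 for Btn1a1 (A_51_P316310), -0.073 to 0.22 for Btn1a1 (A_52_P196097) and -0.19 to 0.082 for Cidea relative to Ppib. Relative to the keratins it ran from -0.18 to 0.056 for Cidea, -0.40 to 0.30 for Cidec, -0.19 to 0.0014 for Adfp, 0.043 to 0.35 and 0.29 to 0.73 for the Xdh probes, and -0.18 to 0.27 and -0.072 to 0.070 for the Btn1a1 probes.

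Over all probes limma called 1 at an adjusted p under 0.05. It called 0 with array weights, median scaling, no scaling, normexp, quantile normalization, the replicate block or slide 3 alone, 0 by the methods' t-test, 137 with slide as a block, and 0 to 215 with an array left out, the highest without hNAG-1 5. At an unadjusted p under 0.05 it called 2315, against 6264 with array weights, 3608 with median scaling, 1061 with normexp, 5407 with the replicate block, 3700 on slide 3 alone, 1499 with slide as a random block and 1163 to 5909 with an array left out. Array numbers did not pair the genotypes: correlations of same-numbered arrays' deviations were 0.28, -0.20, -0.14 and -0.31. With the replicate block the difference was 0.83 for Xdh (A_52_P249965) with an adjusted p = 0.403 by limma. The number of arrays limits what could be resolved, Mfge8 was saturated on 7 of them, and the part of the saturation limit in the Cidea values was not tested.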
